A study of Mus musculus with 8 samples.

Results

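The E13.5 and E12.5 control molar germs are the 2 stages of tooth development in the series that were cultured with the solvent DMSO alone. The members were the 4 deposited columns of counts with those labels, out of 8 in the series. Genes were left out when their names began with Olfr or Vmn (olfactory and vomeronasal receptors), were Gm with digits, ended in Rik or contained -ps. This kept 19644 of 35896 genes. Molar tooth germs were dissected from BRE-GFP mouse embryos at E12.5 or E13.5, grown in DMEM with FBS and GlutaMAX, and given DMSO for 1 day. BRE-GFP is a fluorescent reporter of BMP-Smad signalling that every group carried, controls included. The same SMARTer Universal Low Input kit was used for both stages. The E12.5 germs given SB431542 (an inhibitor of TGF-beta and activin type I receptors, SMARTer kit) or SIS3 (a Smad3 inhibitor, TruSeq kit) for 1 day appear below only as further E12.5 levels and as the source of the spread. The series compares BMP-Smad outputs in dental mesenchyme, and E13.5 serves in it as a stage control. The sources used here do not say how many embryos or germs were pooled, or whether replicates came from separate cultures.

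A molar begins as a thickening of the oral epithelium that buds into mesenchyme derived from the neural crest. Signals of the BMP, FGF, Wnt and Hedgehog families pass between both layers, and at about these stages the potential to direct tooth formation moves from the epithelium to the mesenchyme, which condenses around the bud. The surrounding jaw mesenchyme starts to form bone nearby, while the oral surface epithelium stratifies. A dissected germ is therefore a mixture of dental epithelium, dental mesenchyme, and some oral epithelium, bone-forming mesenchyme, vessels, nerve, muscle and blood.

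For genes with 1 transcript both columns of a stage agreed to about the sampling noise, and for others less closely. Their totals were 15487375 and 15487635 counts at E12.5, and 8759887 and 8759231 counts at E13.5. Over genes with 1 annotated transcript and no sequence shared with another gene, the mean squared difference between columns was 1.12 times (E12.5, 515 genes) and 0.921 times (E13.5, 555 genes) the binomial variance of a random split of the same reads. For genes with 2 to 6 transcripts it was 2.85 and 2.12 times, and with 7 or more 4.57 and 3.52 times. The pair of SIS3 libraries gave 16.6, 17.3 and 31.2 times in these classes. Each stage was therefore counted as 1 sample (30975010 counts at E12.5 and 17519118 at E13.5), and the comparison is of 1 library with 1 library. The column values given below show counting and estimation error only, not the spread between samples. The comparison has no replicate check of its own, and stage cannot be told apart from the dissection, culture or library. Standard errors and p-values come from edgeR's quasi-likelihood fit of the series' 5 libraries, in which the spread is that between the 2 SIS3 libraries and may be technical. For a typical gene the 95% interval of the log2 fold change spanned 1.26 above and below the estimate (median over genes).

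The genes left out took 3.57% of the counts at E12.5 and 9.40% at E13.5. Of the 15414 kept genes tested, 304 were called higher at E13.5 (1.97%) and 168 lower (1.09%) at an adjusted p of 0.05 over the whole table. In a refit on the kept genes alone, 43 of 15404 were called higher (0.279%) and 16 lower (0.104%), and all 59 of these were also called in the fit of the whole table. The median log2 fold change of kept genes was -0.10. The labelled tissue was present at both stages: Msx1, Pax9, Lhx6, Lhx8 and Barx1, which mark dental mesenchyme, stood between 143 and 472 CPM (counts scaled to the library total). Epithelial markers also had counts, with Epcam at 8.10 CPM at E12.5 and 3.88 CPM at E13.5 and Cdh1 at 14.8 and 15.5 CPM. These 2 levels were not set against the floor per kilobase that is used below. Shh, which marks the signalling epithelium of the bud, was near absent (6 counts at E12.5, 0 at E13.5) and was not tested.

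The 5 genes set as markers of the comparison, with earlier results known and not as the largest changes, were Ibsp, Omd, Sostdc1, Krt13 and Krt4. Their promoters are shown because Ibsp and Krt13 were both higher in the 1 E13.5 library although they belong to different tissues. Whether they share regulation was not tested, and 1 library a stage cannot show it. RefSeq windows (GRCm38.p6) were found for 3 of the 5 genes, and each run below holds the 250 bases before the listed start, 5′ to 3′ on the gene's strand. Capitals mark matches on either strand to the TATA box (TATAAA), the CCAAT box, the CACCC box bound by Sp and Klf factors and the RUNX motif (ACCACA).
Ibsp, chr5:104299037-104299286, plus strand: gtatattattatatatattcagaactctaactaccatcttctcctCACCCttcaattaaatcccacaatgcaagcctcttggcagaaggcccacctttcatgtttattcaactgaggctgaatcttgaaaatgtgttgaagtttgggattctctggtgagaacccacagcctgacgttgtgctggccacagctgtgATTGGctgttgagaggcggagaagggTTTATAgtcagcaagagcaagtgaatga
Krt13, chr11:100121567-100121816, minus strand: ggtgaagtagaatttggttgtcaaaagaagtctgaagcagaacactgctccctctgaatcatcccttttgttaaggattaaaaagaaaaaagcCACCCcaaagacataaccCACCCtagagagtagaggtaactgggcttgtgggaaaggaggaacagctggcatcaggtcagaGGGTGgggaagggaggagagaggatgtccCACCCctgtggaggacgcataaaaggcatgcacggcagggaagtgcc
Omd, chr13:49582212-49582461, plus strand: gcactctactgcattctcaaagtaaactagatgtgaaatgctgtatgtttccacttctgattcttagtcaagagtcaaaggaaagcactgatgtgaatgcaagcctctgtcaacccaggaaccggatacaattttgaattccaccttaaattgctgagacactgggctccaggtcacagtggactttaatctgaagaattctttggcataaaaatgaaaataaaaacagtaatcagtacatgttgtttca
The Ibsp window held an inverted TATAAA 28 to 23 bases before the start, an inverted CCAAT at 54 to 50 bases and the CACCC box 1 time. The Krt13 window held the CACCC box 4 times and none of the other 3. For Krt13 2 starts are listed, and only the window of the first was used. The Omd window held none of the 4. The E-box CANNTG, which is not capitalised, matched 3 times in Ibsp, 1 time in Krt13 and 0 times in Omd. Of 32851 RefSeq windows of this length, 12.4% held the TATA box, 33.8% the CCAAT box, 52.0% the CACCC box, 14.0% the RUNX motif and 66.2% the E-box. These matches describe the letters only. GENCODE M21 places the Ibsp gene from an earlier base than the RefSeq start, inside this window.

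Ibsp encodes bone sialoprotein, an acidic glycoprotein of mineralising matrix made by osteoblasts and by cementum-forming cells (ENSMUSG00000029306, GRCm38 chromosome 5, 104299171 to 104311469, plus strand). It stood at 63.8 and 65.7 CPM in the E12.5 columns and at 485 and 478 CPM in the E13.5 columns. Both E13.5 columns were high and both E12.5 columns low, as 1 library each. The fold was 7.44 (log2 fold change 2.92, SE 0.38, edgeR adjusted p = 0.00107, and 0.0184 in the refit on kept genes). The other E12.5 libraries were lower still, at 26.8 CPM with SB431542 and at 0 and 0.106 CPM with SIS3, where the kit differs.

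Omd encodes osteomodulin, a small leucine-rich keratan sulphate proteoglycan of bone matrix (ENSMUSG00000048368, chromosome 13, 49582462 to 49592822, plus strand). Its columns read 15.3 and 12.8 CPM at E12.5 and 56.7 and 54.0 CPM at E13.5. The E13.5 library was again the higher one. The log2 fold change was 2.01 (SE 0.50, edgeR adjusted p = 0.0358), but the call was lost in the refit on kept genes (adjusted p = 0.115). It was also lost in 5 of the other settings, 3 of which leave out 1 column.

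Sostdc1 encodes a secreted inhibitor of BMP and Wnt signalling, also called ectodin or wise, that limits the number and size of teeth (ENSMUSG00000036169, chromosome 12, 36314139 to 36318452, plus strand). It stood at 61.0 and 63.2 CPM at E12.5 and at 192 and 194 CPM at E13.5. The E13.5 library was the higher one here too. The log2 fold change was 1.67 (SE 0.37, edgeR adjusted p = 0.0227, and 0.0893 in the refit, where it was not called). With SB431542 at E12.5 it read 27.7 CPM, and with SIS3 18.5 and 16.8 CPM.

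Krt13 and Krt4 encode a type I and a type II keratin that pair in the layers above the basal layer of non-cornifying oral and oesophageal epithelium. Krt13 (ENSMUSG00000044041, chromosome 11, 100117327 to 100121566, minus strand) stood at 1.49 and 1.55 CPM at E12.5 and at 125 and 126 CPM at E13.5. This was the largest fold among the 5 marker genes, 82.5 (log2 fold change 6.39, SE 0.63, edgeR adjusted p = 0.000142, and 0.00467 in the refit). Krt4 (ENSMUSG00000059668, chromosome 15, 101918535 to 101924735, minus strand) read 2.19 and 2.71 CPM at E12.5 and 42.5 and 44.5 CPM at E13.5 (log2 fold change 4.17, SE 0.73, adjusted p = 0.00616, and 0.0496 in the refit). Both genes were high in the E13.5 library alone and near absent in the treated E12.5 libraries, at 0.462 CPM or less. Ibsp, Krt13 and Krt4 were called in each of the 15 alternative settings tried. Many of these settings leave out 1 of the paired columns or treat them as replicates, although each pair counts as 1 library. Such tallies, here and below, show dependence on the processing and do not stand in for replicates.

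**Figure D1:**
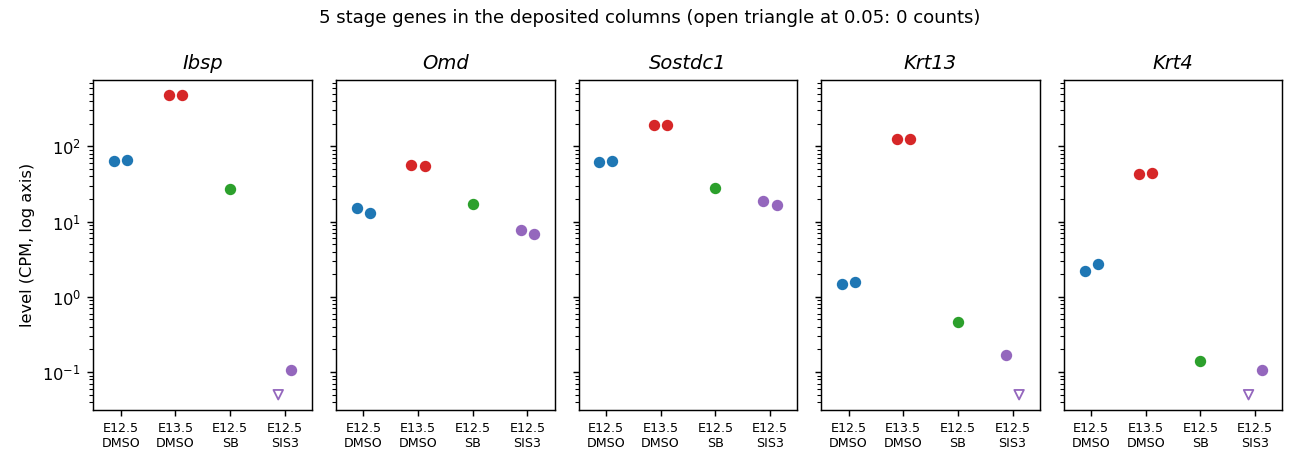
Levels (CPM, log axis) of Ibsp, Omd, Sostdc1, Krt13 and Krt4 in the deposited columns, with 1 point for each column of the DMSO and SIS3 groups and 1 for the summed SB431542 library. In each panel both E13.5 points lie above every E12.5 point, and Krt13 and Krt4 are at 0.462 CPM or less with SB431542 or SIS3.

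Per kilobase of the longest transcript, Ibsp reached 233 CPM per kb at E13.5, Sostdc1 108, Krt13 75.7, Omd 24.6 and Krt4 20.4. At E12.5 the order was Sostdc1 (34.9), Ibsp (31.3), Omd (6.26), Krt4 (1.15) and Krt13 (0.917), so Krt13 passed Omd and Krt4 between the stages. Receptor genes of the nose give a floor for such levels, since a molar germ has no known use for them. Among the 1255 Olfr and Vmn genes with under 20% shared sequence, 95% stood at or below 7.63 CPM per kb at E13.5 and 2.15 at E12.5. All 5 marker genes lay above that level at E13.5, whereas Krt13 and Krt4 lay below it at E12.5.

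Other bone-forming genes gave no call. The osteogenic list had 23 genes, of which 22 were tested, and Ibsp and Omd were the only 2 called higher, with 0 lower. Over all tested kept genes 1.97% were called higher and 1.09% lower, and the list counts here and below stand beside these shares. The median log2 fold change was 0.43 and 14 of 22 were above 0. Runx2, the transcription factor that starts the osteoblast lineage, stood at 348 and 348 CPM at E12.5 and at 318 and 309 CPM at E13.5 (log2 fold change -0.12, SE 0.35). Sp7, which acts after it and encodes osterix, had a difference of -0.22 (SE 0.38), but its E12.5 columns were uneven, at 66.4 and 136 CPM against 82.9 and 87.3 CPM at E13.5. The E13.5 columns of Sp7 thus lay between the E12.5 ones. Dlx5, a homeobox activator of both genes, read 70.3 and 35.5 CPM and was not called (-0.96, SE 0.38, edgeR adjusted p = 0.146).

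The remaining genes of bone matrix and mineral went both ways without a call. Col1a1, the main collagen chain of bone, read 3334 CPM at E12.5 and 5982 CPM at E13.5 (log2 fold change 0.87, SE 0.30), and Sparc, encoding osteonectin, 356 and 484 CPM (0.48, SE 0.34). Alpl, the phosphatase that frees phosphate for mineral, had a difference of 0.39 (SE 0.55), and Spp1, encoding osteopontin, of 0.97 (SE 1.28). Ifitm5 (1.38, SE 0.98), Dmp1 (1.55, SE 0.85) and Bglap2 (2.33, SE 1.21), which mark osteoblasts and osteocytes that lay down mineral, were also above 0. Their levels were low, with Bglap2 at 0.936 CPM at E12.5 and 4.62 CPM at E13.5. Bglap, a copy of the same osteocalcin gene with 62.9% shared words of 31 bases, had 32 counts at E12.5 and 0 at E13.5. Phex (-0.59, SE 0.56) and Tnn (-0.45, SE 0.78) were below 0. The intervals of Sparc, Alpl, Spp1, Ifitm5, Dmp1 and Bglap2 hold 0, and that of Col1a1 does not, but it missed the adjusted threshold.

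**Figure D2:**
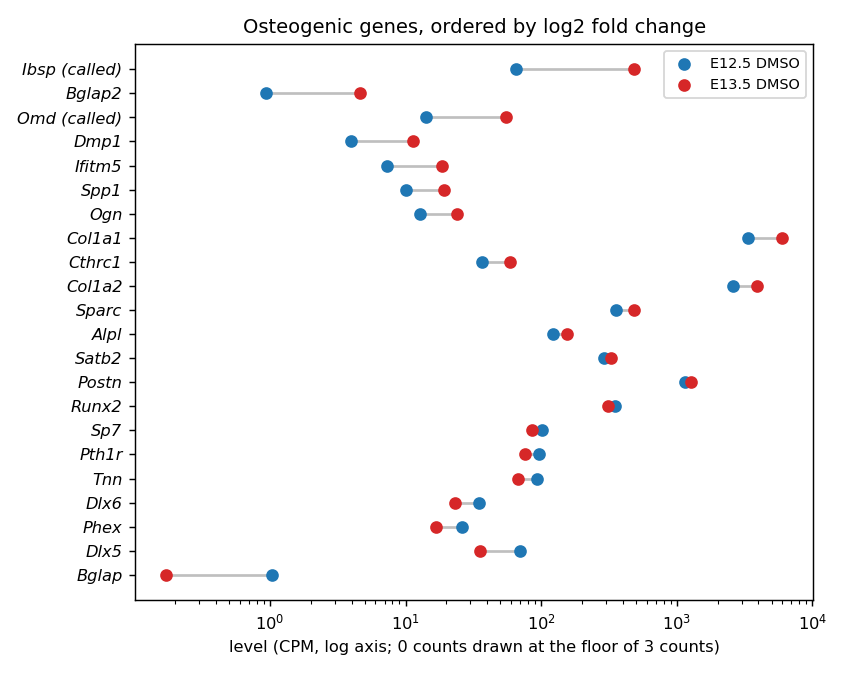
Levels (CPM, log axis) of the 22 tested osteogenic genes in the E12.5 (blue) and E13.5 (red) DMSO libraries, ordered by log2 fold change, with genes at 0 counts drawn at the floor of 3 counts. Ibsp and Omd are the called genes, and Runx2 and Sp7 have nearly the same level at both stages.

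The surface keratins also stood among markers that mostly gave no call. Of 28 genes of oral and skin surface epithelium 21 were tested, and 3 were called higher (Krt13, Krt4 and Dsc1) and 1 lower (Dsc3), with a median log2 fold change of 0.92. Dsc1 and Dsc3 encode desmocollins, the adhesion proteins of desmosomes, of upper and basal layers in turn. Dsc1 read 0.0646 and 0.194 CPM at E12.5 and 6.96 and 10.1 CPM at E13.5 (log2 fold change 6.0, SE 1.36, edgeR adjusted p = 0.0279). Its 2.08 CPM per kb at E13.5 lay inside the range of receptor genes, 12.7% of which stood at or above it. Dsc3 read 20.1 and 23.0 CPM at E12.5 and 3.88 and 3.77 CPM at E13.5 (-2.46, SE 0.64, adjusted p = 0.0414). Neither desmocollin was called in the refit (adjusted p = 0.118 and 0.132).

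The other keratins of the list gave no call. Krt17 stood at 15.9 and 16.6 CPM at E12.5 and at 14.5 and 17.2 CPM at E13.5, so the stages overlapped. Krt5, the basal-layer keratin, read 30.02 and 30.5 against 77.8 and 74.1 CPM (log2 fold change 1.36). Its SE was 2.34, and the SIS3 libraries that give the spread read 5.84 and 52.0 CPM. The same pair was far apart in Krt15 (8.34 and 49.6 CPM, log2 fold change 0.66, SE 1.75) and in Dsp (38.0 and 243 CPM, 0.76, SE 2.16). Krt14, the partner of Krt5, had a difference of 0.80 (SE 1.20) and shares 28.2% of its sequence words of 31 bases with other genes, so its counts are uncertain. Krt6b and Krt77 had 0 counts at E12.5 and 36 and 46 counts at E13.5 (2.055 and 2.626 CPM). This was at least 21.2-fold and 27.1-fold higher, and Krt6b shares 57.0% of its words. Of the cornified-layer genes in the list, Ivl, Sprr1a and Krtdap were at or near 0 at both stages and not tested, and Sbsn read 3.49 and 3.25 CPM. Outside the list, Rptn (0.0969 and 6.22 CPM, edgeR adjusted p = 0.0368) and Lce1g (0 and 4.62 CPM, adjusted p = 0.029, 36.2% shared words), also cornified-layer genes and named after their values were seen, were called higher, but not in the refit (adjusted p = 0.127 and 0.121). The low levels of Krt6b, Krt77, Rptn and Lce1g at E13.5 were not set against the receptor genes per kilobase.

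Dental epithelium genes gave 0 calls among 32 tested of 35 listed (median log2 fold change 0.07). Epcam, an epithelial adhesion gene, had a difference of -1.03 (SE 1.04) and Trp63, the regulator of stratified epithelium, of -0.97 (SE 1.11). Cdh1, encoding E-cadherin, was near even at 14.8 and 15.5 CPM. Edar, the ectodysplasin receptor of the enamel knot, had a difference of 0.85 (SE 1.15), and Wnt10a of -0.44 (SE 1.09). Fgf8, an epithelial signal of the early jaw, had 3 counts at E12.5 and 0 at E13.5. Most standard errors in this list were above 0.8, so only large changes could have passed. In these bulk samples fewer cells of a type and less RNA per cell cannot be told apart.

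The listed transcription factors that pattern the dental mesenchyme gave no call. Of 29 tested genes of the odontogenic mesenchyme list, 1 was called higher, Sostdc1, and 0 lower. The median log2 fold change was -0.12, with 11 above 0. Msx1, needed for the bud to advance to the cap stage, stood at 467 and 476 CPM at E12.5 and at 360.5 and 364.3 CPM at E13.5 (-0.35, SE 0.34). Pax9, its partner in the mesenchyme, read 368 and 359 against 273 and 267 CPM (-0.40, SE 0.43). Lhx6 (-0.28, SE 0.35), Lhx8 (-0.50, SE 0.34) and Barx1, the molar-field factor (-0.22, SE 0.34), were also a little lower without a call. Prrx1 (-0.76, SE 0.31) and Osr2, which restricts tooth formation on the tongue side of the jaw (-0.91, SE 0.40), were the lowest of those above 5 CPM.

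Mesenchymal signals gave no call. Bmp4, the signal the mesenchyme returns to the epithelium, read 78.7 and 82.8 CPM at E12.5 and 86.0 and 92.5 CPM at E13.5 (log2 fold change 0.17, SE 0.37). Inhba, the activin A subunit, had a difference of 0.54 (SE 0.77). Fgf3, which appears in the mesenchyme as it condenses, read 5.55 and 3.49 CPM at E12.5 and 15.5 and 18.5 CPM at E13.5 (1.94, SE 0.79, edgeR adjusted p = 0.159). Fgf10, by contrast, had a difference of -0.37 (SE 0.39). The matrix proteins of condensing mesenchyme Tnc (-0.24, SE 1.38) and Postn (0.16, SE 0.85) were high at both stages. Their SEs were wide, so the small differences do not show them to be level.

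In the BMP pathway 1 of 39 tested genes was called higher, again Sostdc1, and 0 lower, with a median log2 fold change of -0.16. The share called higher over all kept genes was 1.97%. The Id genes, which are direct targets of BMP Smads and encode inhibitors of helix-loop-helix factors, were lower without a call. Id1 stood at 68.1 and 63.9 CPM at E12.5 and at 25.7 and 26.3 CPM at E13.5 (-1.31, SE 0.44, edgeR adjusted p = 0.102). Id2 had a difference of -0.88 (SE 0.34) and Id3 of -0.27 (SE 0.35). The inhibitory Smad genes did not move alike, with Smad7 at -0.57 (SE 0.35) and Smad6 at -0.02 (SE 0.40). Among the other extracellular antagonists Chrd (1.44, SE 0.59) and Fst (0.95, SE 0.42) were higher without a call. Nog had a difference of -0.16 with a wide SE (0.81). The ligands Bmp2 (-0.21, SE 0.42) and Bmp7 (0.05, SE 0.61) and the receptor gene Bmpr1a (-0.47, SE 0.33) also gave no call.

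Of 31 genes of the TGF-beta and activin pathway, 1 was called higher, Tagln, and 0 lower (median log2 fold change 0.16), beside 1.97% higher over all kept genes. Tagln, an actin-binding target of TGF-beta in smooth muscle, stood at 18.4 and 16.5 CPM at E12.5 and at 56.6 and 60.2 CPM at E13.5 (1.77, SE 0.48, edgeR adjusted p = 0.0482). It shares 62.2% of its 31-base words with other genes, so its counts are uncertain, and it was not called in the refit (adjusted p = 0.124). Pmepa1, a feedback target of Smad2 and Smad3, had a difference of 0.89 (SE 0.39), Tgfb1 of 1.23 (SE 0.45) and Ltbp2, a microfibril protein, of 2.45 (SE 0.72), none called. Smad3 (-0.72, SE 0.34) and Tgfbr1 (-0.53, SE 0.34) lay in the other direction.

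The Wnt list had 1 member called lower of 39 tested and 0 higher (median log2 fold change -0.07), beside 1.09% lower over all kept genes. The called member was Wnt6, an epithelial ligand, with 75 counts at E12.5 and 0 at E13.5, at least 14.1-fold lower against the floor of 3 counts (edgeR adjusted p = 0.0296). It was not called in the refit (adjusted p = 0.124), by DESeq2 or without either E13.5 column. At 1.17 CPM per kb at E12.5 it lay below the 95th percentile of receptor genes. Axin2 (-0.36, SE 0.35) and Lef1 (-0.37, SE 0.34), which report beta-catenin activity, gave no call. The Hedgehog list gave 0 calls among 13 genes (median 0.12): Ptch1, receptor and target, read 339 and 343 against 519 and 521 CPM (0.64, SE 0.34), Hhip was at 1.37 (SE 0.58) and Gli1 at 0.22 (SE 0.38). The FGF list gave 0 calls among 20 (median -0.23), with the feedback genes Spry1, Spry2, Spry4, Dusp6 and Etv5 between -0.45 and -0.14, Il17rd at -0.62 (SE 0.41) and Etv4 at 1.06 (SE 0.68). Notch and ectodysplasin genes gave 0 calls among 19 (median 0.02), of which Jag2 had the highest value (1.87, SE 0.75).

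Extracellular matrix genes gave 1 call, Omd, among 48 tested (median log2 fold change 0.15, with 31 above 0). This is near the 1.97% called higher over all kept genes, and Omd is also the call of the osteogenic list beside Ibsp. The fibril collagen Col3a1 (0.58, SE 0.33), the basement membrane chains Col4a1 (0.95, SE 0.32) and Col4a2 (0.97, SE 0.33) and the crosslinking enzyme Loxl1 (1.25, SE 0.36) were higher without a call. The elastic fibre genes Fbln5 (-1.12, SE 0.50) and Fbln1 (-1.01, SE 0.35) were the lowest. Cartilage genes gave 0 calls among 14 tested. Col11a2, a minor cartilage collagen, read 29.96 and 40.2 CPM at E12.5 and 472 and 430.3 CPM at E13.5, a log2 fold change of 3.72. Its SE was 3.24, with 2.17 and 42.9 CPM in the SIS3 pair, while Sox9 (-0.53, SE 0.38) and Col2a1 (0.21, SE 2.39) did not go with it.

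**Figure D3:**
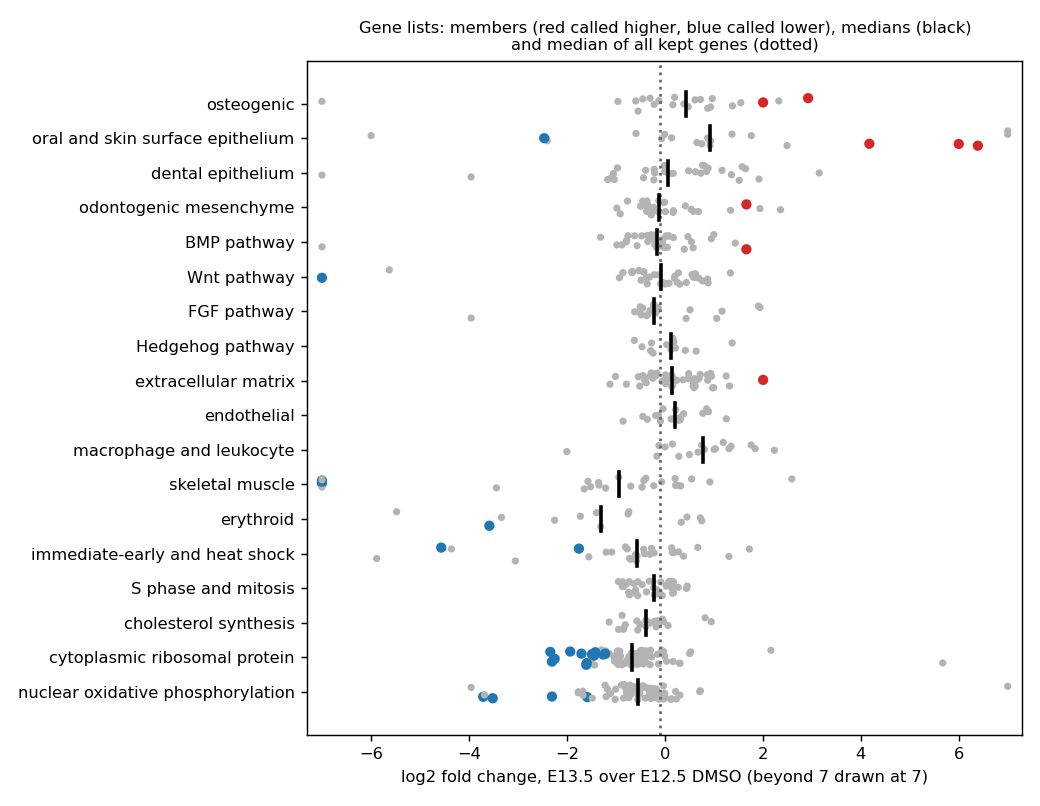
Log2 fold change (E13.5 over E12.5 DMSO) of each tested member of 18 gene lists, with called genes in red (higher) and blue (lower), list medians as black bars and the median of kept genes as a dotted line. The surface epithelium list has 3 red members and 1 blue, the ribosomal protein list 12 blue members, and the dental epithelium, FGF and Hedgehog lists none.

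Genes of muscle, which is not part of the tooth, had 3 calls. Of 29 skeletal muscle genes 27 were tested, and 3 were called lower (Myod1, Pax7 and Tnnc2) and 0 higher, with a median log2 fold change of -0.94. Among all tested kept genes 1.09% were called lower. Myod1, the factor that commits cells to muscle, stood at 7.75 and 7.68 CPM at E12.5 and at 0 and 0 at E13.5 (239 against 0 counts, at least 45.1-fold lower, edgeR adjusted p = 0.0038). It was called in each of the 14 settings in which it was tested. Pax7, which marks muscle progenitors, had 111 counts against 0 (at least 20.9-fold lower), and Tnnc2, a fast troponin, 121 against 0 (at least 22.8-fold lower). Tnnc2 shares 59.0% of its 31-base words with other genes and is uncertain, and neither was called in the refit (adjusted p = 0.110 for Pax7 and 0.118 for Tnnc2). Myod1 at 4.15 CPM per kb lay above the receptor level of E12.5, and Pax7 at 0.612 below it.

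Mymk, Tnnt3 and Mymx, with 109, 41 and 28 counts at E12.5 and 0 at E13.5, were not called. Further muscle genes had counts at both stages. Myog, which follows Myod1, read 19.2 and 6.34 CPM (log2 fold change -1.57, SE 0.61) and Actc1, an actin of embryonic muscle, 53.8 and 20.7 CPM (-1.34, SE 0.43), neither called. Ttn, encoding titin (0.21, SE 0.34), Myh3, the embryonic myosin (-0.23, SE 0.40), and Myh8 (0.32, SE 0.53) had differences near 0. Of the 27 tested genes 7 were above 0. Among these were Myf5, at 0.710 and 4.22 CPM (2.59, SE 1.17), and Chrna1, at 12.3 and 22.8 CPM (0.92, SE 0.56), neither called. Atp2a1, the calcium pump of fast muscle, was not in the list but was called lower, at 16.9 and 17.9 CPM against 0.457 and 0.343 CPM (-5.39, SE 0.87, edgeR adjusted p = 0.00387), and shares 20.3% of its words with other genes.

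Of the blood genes 1 embryonic globin was called lower. Hbb-bh1, an embryonic globin, stood at 4.78 and 3.75 CPM at E12.5 and at 0.228 and 0.457 CPM at E13.5 (log2 fold change -3.58, SE 0.82, edgeR adjusted p = 0.026, and 0.111 in the refit). It was the 1 called gene of 13 tested erythroid genes (median -1.31). Hbb-y, at 350.3 and 353 against 73.5 and 71.0 CPM (-2.25, SE 0.62), and Hba-x (-1.73, SE 0.70), which are also embryonic globins, were lower without a call. Of the adult globins, Hba-a1 (-1.40, SE 0.69), Hba-a2 (-1.31, SE 0.48) and Hbb-bs (-0.74, SE 0.71) were also lower without a call. Hbb-bt was higher without one (0.75, SE 0.46), and shares 59.4% of its words. Endothelial genes gave 0 calls among 20 (median 0.21), macrophage genes 0 among 18 (median 0.78, with 15 above 0) and neural genes 0 among 18 (median 0.01).

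Some ribosomal protein genes were called lower at E13.5. Of 85 tested cytoplasmic ribosomal protein genes 12 were called lower and 0 higher, with a median log2 fold change of -0.67 and 8 above 0. For all tested kept genes the share called lower was 1.09%. Rps21 stood at 354 and 346 CPM at E12.5 and at 65.5 and 70.1 CPM at E13.5 (-2.34, SE 0.35, edgeR adjusted p = 0.00228). Rps28, at 304 and 307 against 60.9 and 60.2 CPM (-2.31, SE 0.35), and Rpl27, at 223 and 224 against 44.8 and 47.3 CPM (-2.25, SE 0.35), were called in the refit too, and these were the only 3 of the 12. Rpl27 shares 24.8% of its words and is uncertain. The other 73 tested members did not pass the test.

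A few genes of the respiratory chain were also called lower. Of 75 tested nuclear genes of oxidative phosphorylation 4 were called lower and 0 higher (median log2 fold change -0.55), beside 1.09% lower over all kept genes. Atp5g1, a subunit of the ATP synthase ring, read 97.3 and 101.3 CPM at E12.5 and 8.68 and 8.33 CPM at E13.5 (-3.51, SE 0.41, edgeR adjusted p = 0.000547). Atp5l, another synthase subunit, was also lower (-2.31, SE 0.40), as were the uncertain Atp5g2 and Cox7c, which share 40.2% and 24.6% of their words. Of the 13 mitochondrially encoded genes mt-Nd6 was called higher, at 91.3 and 86.3 against 632 and 635 CPM (2.87, SE 0.36, adjusted p = 0.000798), and mt-Nd3, with 98.1% shared words, lower. mt-Nd6 is the 1 protein gene read from the other strand of the mitochondrial genome. The other 11 lay between -1.07 and 0.19.

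Transcript length moved with the difference. Among protein-coding kept genes with a mean of at least 5 CPM, the median log2 fold change was -0.52 for the 356 genes with a longest transcript of up to 1 kb, of which 3 were called higher and 20 lower. It was -0.30 for 1447 genes of 1 to 2 kb, -0.12 for 4617 of 2 to 4 kb, -0.08 for 4229 of 4 to 8 kb and -0.05 for 822 longer genes, where 21 were higher and 3 lower. The median longest transcript was 1049 bases for the ribosomal list, 983 for the respiratory list and 3430 for all kept genes. With trends of GC content and length removed, the ribosomal median was -0.45 with 9 called lower, and the respiratory median -0.40 with 4. The part of length, RNA quality or depth in the remainder was not tested.

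**Figure D4:**
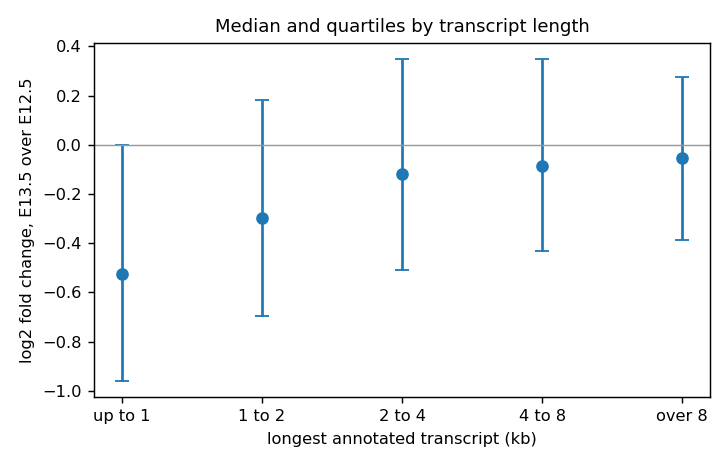
Median (point) and quartiles (bars) of the log2 fold change, E13.5 over E12.5 DMSO, for protein-coding kept genes with a mean of at least 5 CPM, by length of the longest annotated transcript. The medians run from -0.52 in genes of up to 1 kb to -0.05 in genes over 8 kb.

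Immediate-early and heat-shock genes had 2 members called lower among 28 tested, Fos and Hspb1, and 0 higher (median log2 fold change -0.57). Fos, an AP-1 subunit induced within minutes of a stimulus, stood at 273 and 264 CPM at E12.5 and at 85.8 and 70.1 CPM at E13.5 (-1.75, SE 0.34, edgeR adjusted p = 0.0118). It lost its call in 1 of 15 settings, the refit on kept genes (adjusted p = 0.0722). Fosb read 189.6 and 183 against 21.4 and 22.6 CPM, but its SE was 1.55, with 59.4 and 239.8 CPM in the SIS3 pair, and it was not called. Egr1 (-0.81, SE 0.34), Jun (-0.69, SE 0.33) and Klf6 (-1.08, SE 0.35) were lower without a call. Atf3 was higher without one, at 8.01 and 7.04 against 24.2 and 24.6 CPM (1.73, SE 0.55). Hspb1 shares 55.4% of its words and is uncertain. Proliferation genes had 0 of 37 called, with a median of -0.22 and 12 above 0. They ran from -0.95 (Mcm3, SE 0.35) to 0.46 (Tyms, SE 0.34). Mki67 had a wide SE (0.18, SE 1.31), so the lack of a call does not show it to be level. Chac1, a target of the stress factor ATF4, was called lower (-2.36, SE 0.48, adjusted p = 0.0152), and so was Gadd45a, a p53 target (-2.58, SE 0.66, adjusted p = 0.0392). Neither was called in the refit (adjusted p = 0.0858 and 0.129), and Gadd45a was called in 7 of 15 settings.

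Among genes called higher in both fits with little shared sequence, the 9 with the largest folds other than Krt13 were the following. Fsip2, a protein of the sperm fibrous sheath, had 1 count at E12.5 and 1043 at E13.5 (70.8 and 48.3 CPM in the E13.5 columns). Plcz1, the sperm phospholipase that activates the egg, had 0 and 271 counts, at least 160-fold higher, and Cdcp3 0 and 299, at least 176-fold higher. Pax6, the transcription factor of eye and forebrain, had 1 count at E12.5 and 253 at E13.5, and Cxcl15, a chemokine of lung, 1 and 192. Kcnj11 (14 and 607 counts), a potassium channel subunit of the endocrine pancreas, Xkrx (12 and 559), Pkd1l3 (7 and 478) and Vwa5b1 (2 and 259) had the same pattern. Their calls in both fits were fixed by the way they were picked. All 9 were also called in each of the 15 alternative settings, 1 of which is the refit on kept genes.

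Per kilobase, 7 of these 9 genes stood below the 95th percentile of receptor genes at E13.5, though above most of them. Fsip2 read 2.82 CPM per kb at E13.5, and 11% of receptor genes stood at or above it. Pax6 (3.26, with 10.0% at or above), Plcz1 (6.81, 5.34%), Cdcp3 (2.15, 12.6%) and Cxcl15 (5.15, 6.53%) also lay below it, as did Pkd1l3 (4.13, 8.29%) and Vwa5b1 (1.98, 13.2%). Kcnj11 and Xkrx lay above it, at 11.03 and 11.1 CPM per kb. The summed level of the receptor genes was 0.647 CPM per kb at E12.5 and 2.41 at E13.5, with 551 and 568 of them having a count. Of the 277 genes called higher that have an annotated length, 178 (64.3%) stood at or below the 95th percentile of receptor genes at E13.5 and 99 above it. The same share over all kept genes was not computed, so 64.3% has nothing to be set against. Of all 304, 73 had 0 counts at E12.5 and 164 were under 1 CPM, and their median went from 0.549 to 15.04 CPM. They were chosen as higher in these same libraries, so a rise of their median was fixed in advance. The Hox cluster genes, which first-arch mesenchyme does not use, went from 4.81 to 15.2 CPM in sum, with 0 of 12 tested called. The source of these counts was not tested.

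**Figure D5:**
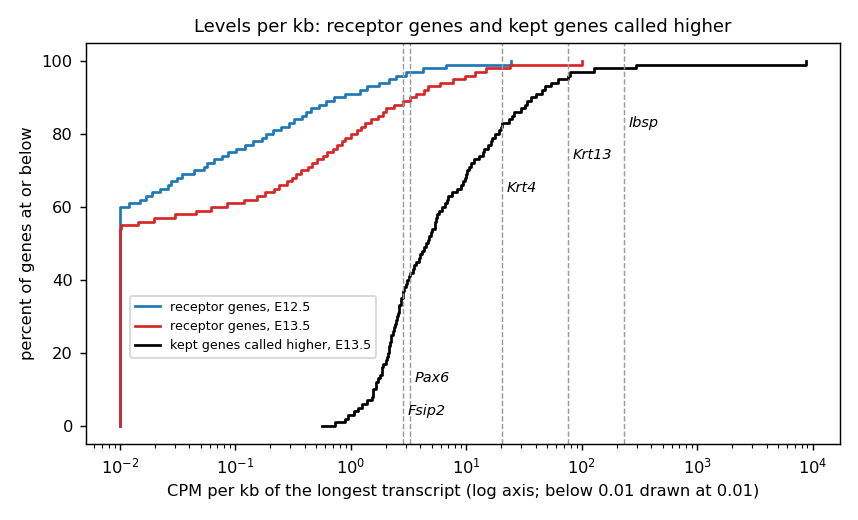
Percent of genes at or below a level (CPM per kb of the longest transcript, log axis) for receptor genes at E12.5 (blue) and E13.5 (red) and for kept genes called higher at E13.5 (black). The red curve lies to the right of the blue one, Fsip2 and Pax6 (dashed) stand at 2.82 and 3.26 CPM per kb inside its upper tail, and Krt4, Krt13 and Ibsp stand at 20.4, 75.7 and 233.

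Genes called lower in both fits were fewer. Ccdc107, a coiled-coil protein, stood at 209 and 212 CPM at E12.5 and at 3.65 and 3.77 CPM at E13.5 (log2 fold change -5.79, SE 0.47, edgeR adjusted p = 1.88e-05) and was called in each of 15 settings. The uncertain Hspe1, the mitochondrial co-chaperonin, with 30.5% shared words, was lower as well (-2.98, SE 0.38), as was Trmt112 (-3.60, SE 0.55), with 60.1%. Of the 59 genes called in both fits, 33 shared under 20% of their words (28 higher and 5 lower), 17 shared more and 9 were missing from the annotation. Some of the largest differences came from near-identical pairs. H2ac19 went from 0 to 254 CPM while its copy H2ac18 went from 482 to 90.5, and Fam177a2 from 0 to 322 counts while Fam177a went from 540 to 0. Each shares at least 98.5% of its words, so counts may have passed between copies.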

How the data were processed

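RNA-seq of total RNA gave 2 columns of counts for each of 4 groups. The deposited file holds estimated counts, given as whole numbers per gene and unscaled. Per the submitters' processing notes, Salmon, HISAT2, SAMtools, deepTools and DESeq2 were used and the build was mm10. The sources used here give no roles, versions, annotation or strand setting. Reads that fit several transcripts are shared out by estimation in Salmon, so counts of near-identical or overlapping genes can move between them.

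Paired columns that differed by about the sampling noise were summed, which left 5 libraries. edgeR 4.0.16 (R 4.3.3) was run on the whole table: filterByExpr (19022 genes), TMM, robust quasi-likelihood F test, group only, Benjamini-Hochberg at 0.05. There was 1 residual degree of freedom, from the SIS3 pair, plus 12.5 borrowed across genes. A call is an adjusted p under 0.05. CPM uses the whole library total. The floor for 0 counts was 3 counts (0.0969 CPM at E12.5, 0.171 at E13.5); bounds cover counting error only. Shared sequence is the percent of a gene's 31-base words, on either strand, found in another GENCODE M21 gene; lengths and coordinates are GENCODE M21 (GRCm38), which holds 35437 of the 35896 IDs. Under a name with several IDs, the ID with the most E12.5 counts was used. Scripts were tested on simulated data.

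Named genes were the 5 marker genes; of the genes called in both fits, the 15 highest and 15 lowest by log2 fold change; called list members; a set of tooth genes (1 is not reported here); and the highest and lowest member of each list with a mean of at least 5 CPM. Other members are named beside them to describe a list. The members and the 30 lists were chosen with earlier results of these data known. Alternatives were RLE scaling, DESeq2 1.42.0, other filters, kept genes only, genes with little shared sequence, columns as replicates with and without a replicate block, GC and length trends removed, and each DMSO column left out.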

Additional observations from a re-analysis of the deposited data

Results flagged for a closer look

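The genes left out by name carried a signal that was larger at E13.5 than at E12.5. Olfactory receptor genes, which the comparison does not use, took 1.159% of the E13.5 counts against 0.332% at E12.5. Vomeronasal receptor genes took 0.8531% against 0.205%, and predicted genes named Gm with a number 6.245% against 2.07%. In the E12.5 libraries with SB431542 or SIS3 the Gm share was at most 2.585%. Both columns of each stage showed these shares, but they count as 1 library, so this is not replication. The cause was not tested.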

How the results depend on the processing

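The counts of called genes depended on the setting. DESeq2 called 164 kept genes higher and 96 lower (156 and 91 of them shared with edgeR), no filter 625 and 490, a mean of at least 5 CPM 82 and 25, kept genes alone 43 and 16, and genes with under 20% shared words 144 and 54. RLE scaling (388 and 189) and removal of GC and length trends (236 and 153) stayed within 1.5 times; RLE moved the median of kept genes by 0.05. Leaving out 1 column gave 111 to 266 higher and 44 to 150 lower; without E13.5 replicate 1 they were 111 and 57, without E13.5 replicate 2 they were 111 and 44, and without E12.5 replicate 2 they were 198 and 115. With columns as replicates the counts were 3505 and 4070 over 8 columns, and 4623 and 5403 over 4, where the spread is that between paired columns. The replicate block gave 3306 and 3873 over 8 columns and 4553 and 5322 over 4; same-numbered columns did not deviate together (correlations of -0.0307 to 0.0431), so the numbers do not pair the samples. Without 1 E13.5 column Omd, Dsc1, Dsc3, Pax7, Wnt6, Tagln, Hbb-bh1, Gadd45a and Chac1 were among the genes that lost their call. A SIS3 library could not be left out, since no residual degree of freedom remains. No named gene that was called changed sign in any setting run. At an unadjusted p under 0.05 there were 1468 kept genes higher and 1409 lower. With 1 library a stage, a change is seen only when it is large, and genes under 1 CPM rest on few reads.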

Other observations

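Metabolic genes gave few calls. Cholesterol synthesis genes were lower in 18 of 21 with 0 called (median log2 fold change -0.39), though Lss, the lanosterol synthase, was at 0.95 (SE 0.35) and Sc5d at -1.14 (SE 0.37). Glycolysis and hypoxia genes had 0 of 21 called and a median of -0.28. In the cell cycle inhibitor and p53 list 1 of 18 was called, Gadd45a, while Ccng1, another p53 target, lay in the other direction (1.16, SE 0.36, edgeR adjusted p = 0.0764).

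Of the melanocyte genes, Dct, an enzyme of melanin synthesis, read 4.78 and 5.81 CPM at E12.5 and 22.1 and 22.03 CPM at E13.5 (2.09, SE 0.66, edgeR adjusted p = 0.0815), and Tyr 12.3 and 30.5 CPM (1.34, SE 0.53). Neither was called, and Tyrp1, Pmel and Mlana were at or near 0 at both stages.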
